A study of Mus musculus with 4 samples.

Results

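The genes described here are 8 transporters that move organic anions, organic cations and carnitine across the cells of the kidney's proximal tubule: Slco1a1, Slc22a6, Slc22a8, Slc22a12, Slc22a29, Slc22a2, Slc22a4 and Slc22a5. They were taken by name from the platform annotation, with every probe set annotated to 1 of them alone, which gave 13 of the 22690 probe sets on the array and 8 of 12394 named genes. A probe set is a group of short probes read out as 1 value. All 8 genes passed the filter on low values used for comparisons over all genes, a mean of 6.27 on the log2 scale, which 8207 genes passed.

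The arrays carried RNA from whole kidney of C57BL/6 mice, labelled male and 17 weeks of age, and there was 1 array for each of 4 groups. The GN+Captopril and GN+Water groups had glomerulonephritis (GN), an immune injury of the filtering units brought on by 10 mg of horse spleen apoferritin on 5 days a week with 100 µg of lipopolysaccharide 3 times a week, both into the peritoneum for 6 weeks. The Saline+Captopril and Saline+Water groups received 0.15 M NaCl instead. Captopril, a blocker of angiotensin converting enzyme, was drunk at 100 mg/kg/day, and kidneys were taken after 9 weeks. Each group had 6 mice, and the labels leave unstated whether 1 mouse or a pool was hybridised. With 1 array per group there is no measure of error, no test and no p-value, and each difference below compares 2 arrays. In RNA of a whole organ, fewer tubule cells and less transcript per cell cannot be told apart.

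The proximal tubule secretes drugs, toxins and metabolites by taking them up from blood on its basolateral side and releasing them into urine on its apical side. Slc22a6 and Slc22a8 encode the basolateral organic anion transporters OAT1 and OAT3, and Slc22a2 encodes the basolateral organic cation transporter OCT2. Slc22a12 encodes the apical urate exchanger URAT1, Slco1a1 the apical anion transporter Oatp1a1, which carries steroid conjugates, and Slc22a4 and Slc22a5 the carriers OCTN1 and OCTN2 for ergothioneine and carnitine. Slc22a29 belongs to a cluster of anion transporter genes of the same family. In mouse kidney Slco1a1 is known to depend on androgens and to be much more abundant in males, and Slc22a6 is likewise more abundant in males.

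The 4 sequences that follow are the 250 bases before the transcription start of the genes whose values differ most in what follows, Slco1a1, Slc22a29 and Slc22a6, and of Slc22a8, the next protein-coding gene to Slc22a6, which did not share its pattern. They are from RefSeq, build GRCm38.p6, read 5′ to 3′ on the gene's strand.
Slco1a1 (chr6:141946963-141947212, minus strand): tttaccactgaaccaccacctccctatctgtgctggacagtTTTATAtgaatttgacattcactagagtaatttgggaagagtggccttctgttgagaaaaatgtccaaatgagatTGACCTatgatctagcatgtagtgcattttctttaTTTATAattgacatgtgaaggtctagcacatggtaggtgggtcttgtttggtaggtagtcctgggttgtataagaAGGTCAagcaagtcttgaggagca
Slc22a29 (chr19:8218901-8219150, minus strand): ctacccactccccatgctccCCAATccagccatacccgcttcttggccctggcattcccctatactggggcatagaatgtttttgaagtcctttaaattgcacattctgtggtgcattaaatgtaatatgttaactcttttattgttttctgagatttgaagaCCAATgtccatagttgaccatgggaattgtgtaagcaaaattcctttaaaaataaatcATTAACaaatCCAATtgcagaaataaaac
Slc22a6 (chr19:8617746-8617995, plus strand): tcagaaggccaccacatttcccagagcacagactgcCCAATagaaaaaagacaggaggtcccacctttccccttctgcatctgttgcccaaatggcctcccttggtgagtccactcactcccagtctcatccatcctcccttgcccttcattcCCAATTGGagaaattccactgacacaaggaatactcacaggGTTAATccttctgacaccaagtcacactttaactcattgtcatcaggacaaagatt
Slc22a8 (chr19:8592932-8593181, plus strand): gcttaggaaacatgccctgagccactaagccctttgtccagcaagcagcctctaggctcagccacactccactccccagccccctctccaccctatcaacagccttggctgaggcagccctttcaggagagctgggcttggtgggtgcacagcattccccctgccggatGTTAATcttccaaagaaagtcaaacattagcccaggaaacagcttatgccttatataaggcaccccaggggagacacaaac
Capitals mark matches on either strand to GTTAAT (a half-site of the HNF1 factors of tubule cells), AGGTCA (a half-site of nuclear receptors), TATAAA or CCAAT. These motifs were picked after the 3 searched first had found no match in the 8 windows. GTTAAT was found in 3 of the 8 members' windows (Slc22a6, Slc22a8 and Slc22a29) and in 6.43% of 32851 windows of this length. AGGTCA and TATAAA were each found in 1 of 8, both in Slco1a1, against 14% and 12.4% of all windows, and CCAAT in 3 of 8 against 33.8%. In Slc22a6, 2 of the CCAAT matches overlap each other on opposite strands. The 3 sites searched first, AGAACA (an androgen receptor half-site, in 16.1% of all windows), the full HNF1 site (0.00913%) and CAAAGTCCA (HNF4, 0.384%), had no match in any of the 8 windows. A match says that these letters are present, not that a factor binds.

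A pair of arrays limit what can be compared. The chip labelled GN+Water, one of the 4 arrays, carried the sex-linked RNAs of a female kidney although its label is male: Xist, expressed from the inactive X chromosome, was at 8.97 on this array and 5.02, 5.18 and 5.21 on GN+Captopril, Saline+Captopril and Saline+Water. The Y-linked Eif2s3y was at 3.43 on it, below the array's background limit of 4.37, and at 8.19, 8.29 and 8.02 on the same other arrays. Uty, also Y-linked, was at 4.27, against 6.30 to 6.34, and Kdm5d at 3.52, against 4.63 to 5.69. Uty and Kdm5d were likewise below the limit of 4.37 on the chip labelled GN+Water. The 4.63 of Kdm5d, on Saline+Water, was also below that array's limit of 4.81. Of the X-linked partners, Kdm6a was at 9.20 on it and at 6.89 to 8.48 elsewhere, and Eif2s3x at 10.7, against 9.95 to 10.3. The Saline+Water array had a spike-in control median of 10.8, against 7.46 to 7.89 on the others. GN differences are therefore given first for GN+Captopril and Saline+Captopril, which carry neither feature and correlated at 0.994 over all probe sets. The chip labelled GN+Water correlated at 0.988 with GN+Captopril and 0.982 with Saline+Captopril. Saline+Water correlated least with the others, at 0.961 with GN+Captopril, 0.966 with Saline+Captopril and 0.945 with the chip labelled GN+Water.

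**Figure D1:**
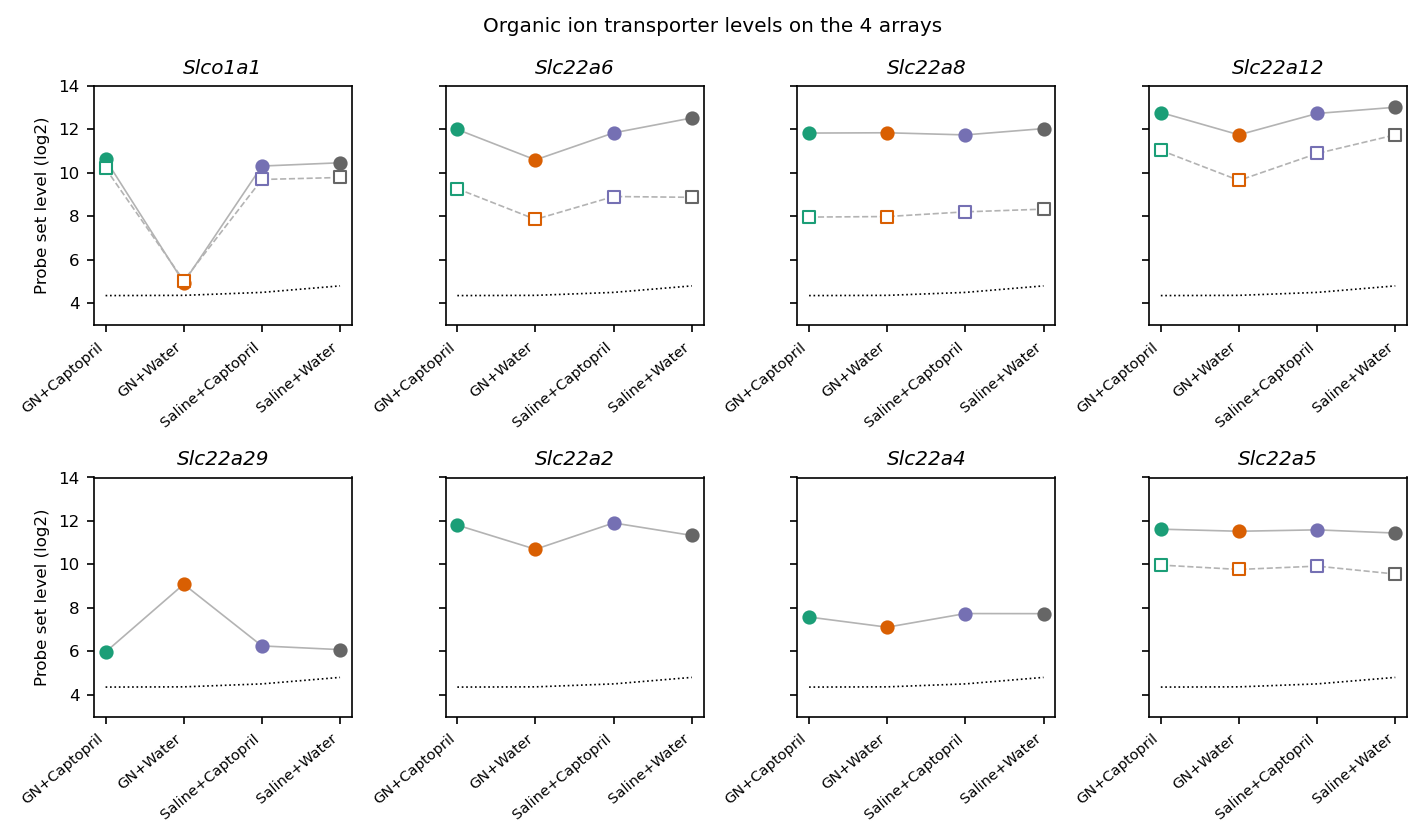
Probe set levels (log2, vertical axis) of the 8 transporter genes on the 4 arrays (horizontal axis, 1 array per group, no error bars). Filled circles are the probe set that represents the gene, open squares its second probe set where there is one, lines only join points of a probe set, and the dotted line is each array's background limit. Slco1a1 is at 4.96 on the chip labelled GN+Water, with the others at 10.3 to 10.6, and Slc22a29 is at 9.09 against 5.98 to 6.26.

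Among the apical carriers, Slco1a1 separated the arrays most. Its representative probe set read 10.6 on GN+Captopril, 4.96 on the chip labelled GN+Water, 10.3 on Saline+Captopril and 10.5 on Saline+Water. Its second probe set read 10.2, 5.05, 9.70 and 9.79 in the same order of arrays. On the chip labelled GN+Water both stood a little over the background limit of 4.37, so that little Slco1a1 signal was left there, and the other 3 arrays lay within 0.30 of each other by the first probe set and within 0.51 by the second. Slc22a12, the urate exchanger gene, read 12.8, 11.8, 12.7 and 13.0 by its representative probe set, and 11.04, 9.66, 10.9 and 11.8 by the second. The chip labelled GN+Water was the lowest by both, by 0.98 on the first.

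The basolateral anion transporter genes went separate ways. Slc22a6 (OAT1) read 12.001 on GN+Captopril, 10.6 on the chip labelled GN+Water, 11.8 on Saline+Captopril and 12.5 on Saline+Water, and its second probe set 9.28, 7.87, 8.92 and 8.88. By both it was lowest on the chip labelled GN+Water. Slc22a8 (OAT3), its next neighbour on chromosome 19, read 11.8, 11.8, 11.8 and 12.04, and its second probe set 7.97, 7.998, 8.21 and 8.34. Here the chip labelled GN+Water lay inside the range of the other 3 by both probe sets. Slc22a29, of the same chromosome, was the only one of the 8 to be highest on that array, at 9.09, against 5.98 on GN+Captopril, 6.26 on Saline+Captopril and 6.09 on Saline+Water. Its mean over those 3 arrays was 6.11, so it passed the filter through the chip labelled GN+Water. Its only probe set is of a kind that can also bind related transcripts, and a further probe set annotated to more than 1 gene of the family, one of them among the 8, was given no gene name. That unnamed probe set read 7.13, 10.1, 7.02 and 7.07 on the arrays in the same order.

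Slc22a2 (OCT2) read 11.8 on GN+Captopril, 10.7 on the chip labelled GN+Water, 11.9 on Saline+Captopril and 11.3 on Saline+Water. Slc22a4 (OCTN1) read 7.58, 7.12, 7.74 and 7.74. Both were lowest on the chip labelled GN+Water, Slc22a2 by 0.64 and Slc22a4 by 0.47. Slc22a5 (OCTN2), which lies close to Slc22a4 on chromosome 11, read 11.6, 11.5, 11.6 and 11.4, with a second probe set at 9.97, 9.77, 9.92 and 9.56, and the chip labelled GN+Water was inside the range of the others by both.

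GN in captopril-treated mice left the 8 transporters close to their levels in saline mice on captopril. None of the 8 was 1.5-fold higher or lower on GN+Captopril than on Saline+Captopril. Over all genes 2.06% reached 1.5-fold in this pair (1.85% higher, 0.207% lower) and 0.743% reached 2-fold (0.719% higher, 0.0244% lower). Beside these shares a count of 0 among 8 is no result about the transporters. Slco1a1 was furthest up, 1.23-fold higher (10.6 on GN+Captopril and 10.3 on Saline+Captopril), with 1.42-fold from its second probe set. Slc22a6 was 1.11-fold, Slc22a8 1.06-fold, Slc22a12 1.03-fold and Slc22a5 1.02-fold higher. Slc22a29 was 1.21-fold, Slc22a4 1.12-fold and Slc22a2 1.07-fold lower. The median difference of the 8 was 0.04 on the log2 scale, against 0.00 over all genes, and the median size of the difference was 0.13, against 0.08. Slc22a8 was lower by 0.24 in its second probe set, the 1 gene of 5 with 2 probe sets whose probe sets pointed opposite ways here.

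GN in water-drinking mice is read from the array whose sex-linked transcripts go against its label. Slco1a1, Slc22a6 and Slc22a12 were lower on it than on Saline+Water by 2-fold or more, Slc22a29 was higher by 2-fold or more, and the other 4 lay between. These 4 of 8 stand beside 14.8% of all genes, the 3 lower ones beside 4.42% and the 1 higher one beside 10.3%. The 1 higher, Slc22a29, passed the filter only through its value on this chip, so the filter helped to set its place in these counts. The 1.5-fold limit was reached by 6 of 8, beside 34.9% of all genes (19.6% higher, 15.3% lower). Slco1a1 was 45.4-fold lower (4.96 on the chip labelled GN+Water, 10.5 on Saline+Water) and only 2 of 8207 genes had a more negative difference. Its second probe set gave 26.7-fold. Slc22a6 was 3.80-fold lower by one probe set and 2.02-fold by the other. Slc22a12 was 2.41-fold lower by the representative probe set, of a kind shared between transcripts, and 4.27-fold by the other. Slc22a29 was 8.04-fold higher. Slc22a2 was 1.55-fold and Slc22a4 1.54-fold lower. Slc22a8 was 1.14-fold lower and Slc22a5 1.06-fold higher. The median of the 8 was −0.63, against 0.00 over all genes.

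With Saline+Captopril as the baseline of the chip labelled GN+Water, which avoids the array with discordant spike-ins, Slco1a1 was 40.9-fold, Slc22a6 2.37-fold, Slc22a2 2.31-fold, Slc22a12 1.97-fold and Slc22a4 1.54-fold lower. Slc22a29 was 7.14-fold higher, Slc22a8 1.07-fold higher and Slc22a5 1.05-fold lower. In all, 4 of 8 members were at least 2-fold apart, beside 3.62% of all genes. When GN+Captopril was set against Saline+Water instead, 0 of 8 were 2-fold apart, beside 9.88% of all genes, with Slco1a1 higher by 0.15 and Slc22a29 lower by 0.11 on the log2 scale. The chip labelled GN+Water lay at least 2-fold outside the range of the other 3 arrays for 3 of the 8 members, Slco1a1, Slc22a6 and Slc22a29, and for 1.58% of all genes. Slc22a29, counted here and in the 4 of 8, passed the filter only through this chip. The chip labelled GN+Water was below the other 3 arrays for 8 of the 13 probe sets, above them for 1 and inside their range for 4.

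**Figure D2:**
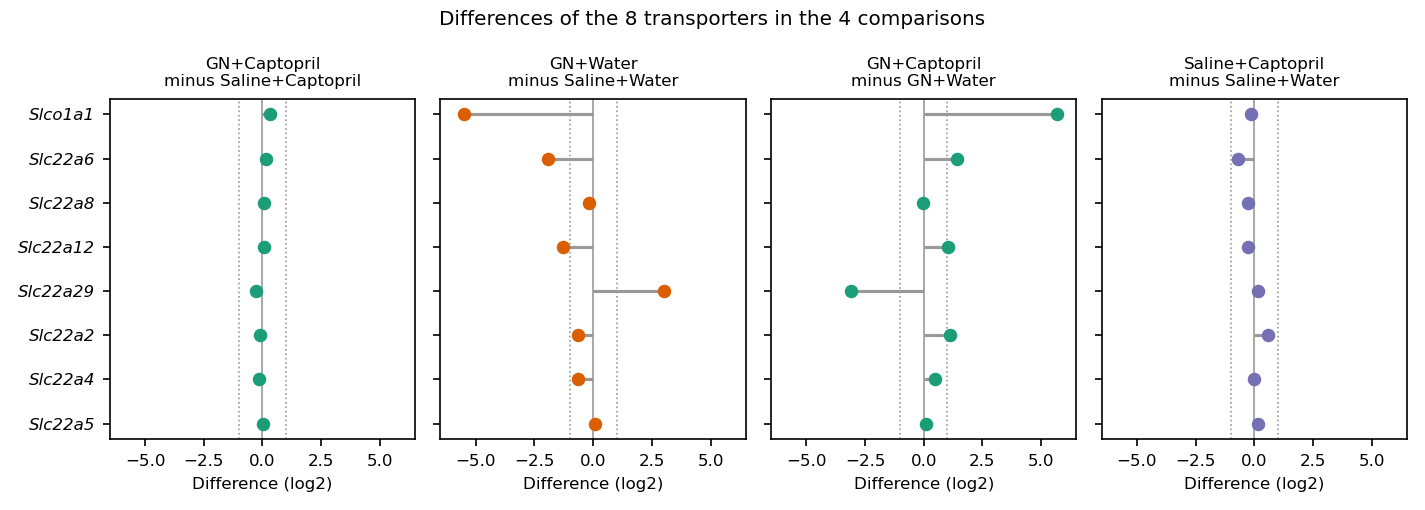
Log2 differences (horizontal axis) of the 8 transporters (rows, representative probe set) in the 4 comparisons (panels), each between 2 single arrays and so without error bars. Dotted lines mark a 2-fold difference. All 8 lie between −0.28 and 0.30 for GN+Captopril minus Saline+Captopril, while Slco1a1 is at −5.51 and Slc22a29 at 3.01 for GN+Water minus Saline+Water.

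Captopril in mice with GN is compared through the same chip labelled GN+Water, so this comparison and the one before it share their outlying values. On GN+Captopril, Slco1a1 was 50.5-fold higher than on the chip labelled GN+Water, with only 2 of 8207 genes having a larger positive difference, and its second probe set gave 35.7-fold. Slc22a6 was 2.64-fold, Slc22a2 2.16-fold and Slc22a12 2.03-fold higher, and Slc22a4 1.38-fold. Slc22a29 was 8.68-fold lower. Slc22a5 was 1.07-fold higher and Slc22a8 1.01-fold lower. In all, 5 of 8 members reached 2-fold, 4 higher and 1 lower, beside 2.51% of all genes (1.39% higher, 1.12% lower). The same 5 were those past 1.5-fold, beside 8.22% of all genes (3.7% higher, 4.52% lower). The 1 lower, Slc22a29, passed the filter only through the chip labelled GN+Water. The median of the 8 was 0.75, against 0.00 over all genes.

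Captopril in saline mice is read from a pair that includes the array with discordant spike-ins, and 7 of the 8 lay within 1.5-fold. Slc22a6 was 1.61-fold lower with captopril than with water (11.8 on Saline+Captopril, 12.5 on Saline+Water), but its second probe set differed by 0.04 in the other direction. In this pair 25.7% of all genes reached 1.5-fold (15.6% higher, 10.2% lower) and 8.52% reached 2-fold (6.43% higher, 2.08% lower), against 1 and 0 of the 8 members. Beside these shares the counts are no result about the transporters. Slc22a2 was 1.49-fold higher, Slc22a5 1.11-fold and Slc22a29 1.13-fold, and Slc22a4 differed by less than 0.01 on the log2 scale. Slc22a8 and Slc22a12 were both 1.22-fold lower and Slco1a1 1.11-fold. Slc22a12 was 1.81-fold lower by its second probe set.

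The GN difference with captopril can be set beside that on water for each gene, from pairs that share no array. For Slco1a1 it was 0.30 on captopril and −5.51 on water, a gap of 5.81 on the log2 scale. Slc22a29 had −0.28 on captopril and 3.01 on water, and Slc22a6 0.16 and −1.93. For Slc22a12 the values were 0.04 and −1.27, for Slc22a2 −0.10 and −0.64, and for Slc22a4 −0.16 and −0.62. Slc22a8 (0.08 and −0.19) and Slc22a5 (0.03 and 0.08) had the smallest gaps. The differences between drinking groups have no test, and captopril and the discordant sex-linked transcripts cannot be told apart in them.

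**Figure D3:**
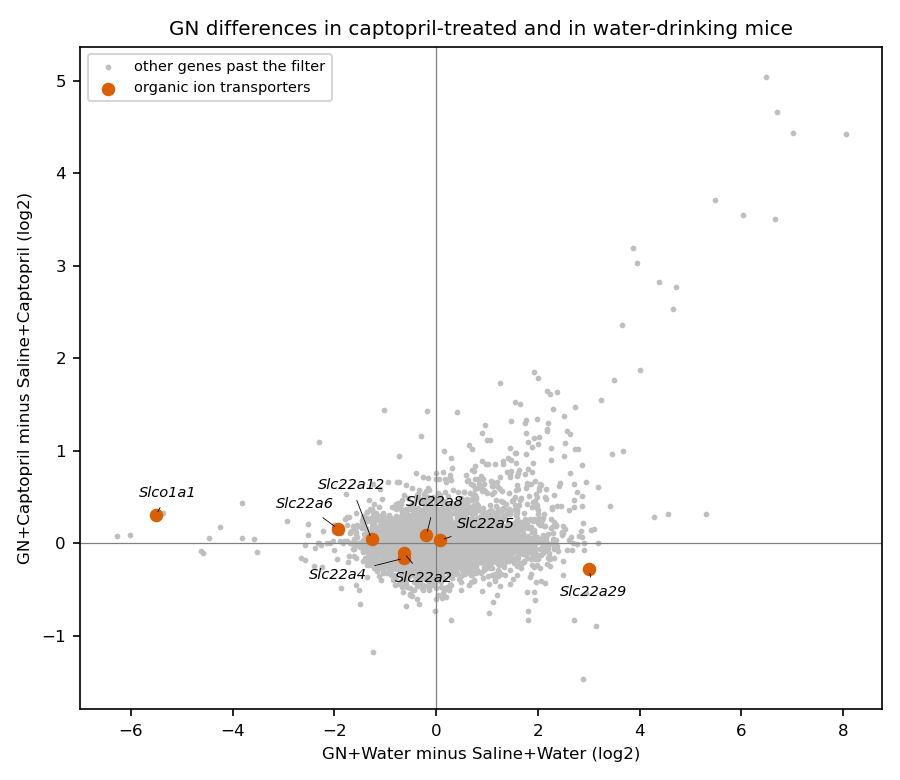
GN differences (log2) on captopril (vertical axis, GN+Captopril minus Saline+Captopril) against those on water (horizontal axis, GN+Water minus Saline+Water) for 8207 genes, the 8 transporters in orange and the others in grey. Each point is a difference of single arrays. The transporters spread from −5.51 to 3.01 along the horizontal axis and from −0.28 to 0.30 along the vertical one.

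Slco1a1 and Slc22a29 were the 2 members whose levels ranged over at least 2 log2 units, and the genes of most similar profile were found by the root mean square distance between profiles over the 4 arrays, each centred on its mean. The 5 nearest to Slco1a1 were Cyp2j13, at a distance of 0.06, Acsm3 (0.36), the Y-linked Eif2s3y (0.37), Cyp7b1 (0.39) and Slc7a13 (0.47). Cyp2j13 encodes a cytochrome P450 of the male mouse kidney, and its levels were 11.4 on GN+Captopril, 5.86 on the chip labelled GN+Water, 11.07 on Saline+Captopril and 11.2 on Saline+Water. The 5 nearest to Slc22a29 were Akr1c18 (0.25), Cbr1 (0.33), Gsta4 (0.36), Gbp3 (0.42) and Hdc (0.48). Only genes past the filter were compared, and Slc22a29 passed it only through the chip labelled GN+Water. Hdc read 5.64, 8.44, 5.32 and 6.44 in the same order of arrays, so its passing also leaned on that chip. The likeness of such genes is in part set by the filter. Akr1c18, a progesterone-inactivating enzyme gene more abundant in female mouse kidney, read 8.23, 10.9, 8.28 and 8.54 in the same order of arrays. Gbp3 read 7.37, 9.59, 6.76 and 6.40, and so was also higher on GN+Captopril than on the saline arrays. Each profile has 4 points, most of whose spread comes from 1 array.

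Further organic ion transporters are given beside the shares of all genes. Of 41 listed genes outside the 8, 30 were measured and 19 passed the filter. On GN+Captopril relative to Saline+Captopril, 0 of the 19 were 1.5-fold apart, beside 2.06% of all genes. On the chip labelled GN+Water relative to Saline+Water, 3 of 19 were higher and 3 lower by 1.5-fold or more, beside 19.6% and 15.3% of all genes, and the median was −0.03. These counts on the chip labelled GN+Water lie near the shares of all genes and are no result about the transporters. Slc22a30, the next coding gene to Slc22a29, was 4.01-fold lower there by its named probe set (9.09, against 11.1 on Saline+Water), the opposite direction. The probe set given no gene name is annotated to both Slc22a29 and Slc22a30. It was 8.36-fold higher on the chip labelled GN+Water (10.1, against 7.07 on Saline+Water). Slc22a19, encoding the anion transporter OAT5, was 2.27-fold higher, Slc22a13 1.74-fold and Slco1a6 1.57-fold higher, Slco3a1 2.40-fold and Slc22a18 1.65-fold lower. Slc22a7, the OAT2 gene, was at 11.2 to 11.4 on all 4 arrays.

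Relative to the chip labelled GN+Water, GN+Captopril had 4 of the 19 higher and 2 lower by 1.5-fold or more, beside 3.7% and 4.52% of all genes. Slc22a30 was 5.77-fold, Slco3a1 3.06-fold, the phosphate and urate transporter family gene Slc17a3 1.66-fold and the efflux pump gene Abcc2 1.63-fold higher. Slc22a19 was 2.33-fold and Slc22a13 1.84-fold lower. On Saline+Captopril relative to Saline+Water, Abcc2 was 1.73-fold and Slc22a30 1.51-fold higher and none of the 19 was 1.5-fold lower, beside 15.6% of all genes higher and 10.2% lower. The apical efflux genes Slc47a1 (12.8, 12.2, 12.7 and 12.6) and Abcg2 (12.4, 12.3, 12.5 and 12.2) stayed within 0.57 over the arrays from GN+Captopril to Saline+Water. Under the filter stood 11 more, among them the basolateral efflux pump gene Abcc3, at 4.74 on GN+Captopril, 7.86 on the chip labelled GN+Water, 5.01 on Saline+Captopril and 4.84 on Saline+Water. Abcc3 was highest on the chip labelled GN+Water.

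Partner and regulator genes were less far apart than Slco1a1. Of 26 listed, 19 were measured and 16 passed the filter, and 0 of 16 were 1.5-fold apart on GN+Captopril relative to Saline+Captopril, beside 2.06% of all genes. On the chip labelled GN+Water relative to Saline+Water 5 of 16 were 1.5-fold lower or more, 0 were higher by as much, and the median was −0.27. Of all genes 15.3% were lower and 19.6% higher by that fold. Nr1h4, the bile acid receptor FXR gene, was 2.99-fold, the carnitine acetyltransferase gene Crat 2.21-fold, the lactate transporter gene Slc5a8 1.65-fold and Cpt1a, for carnitine-dependent fatty acid import, 1.53-fold lower. Slc13a3, which brings in the dicarboxylates that OAT1 and OAT3 exchange, read 11.5, 11.2, 11.8 and 11.7 from GN+Captopril to Saline+Water, and Pdzk1, a scaffold of apical transporters, 12.6, 12.4, 12.6 and 12.6. The transcription factor gene Hnf4a read 12.4, 12.1, 12.4 and 12.7. On GN+Captopril relative to the chip labelled GN+Water 2 of 16 were at least 1.5-fold higher, Slc5a8 (2.46-fold) and Nr1h4 (1.92-fold), and 1 lower, Slc16a1 (1.73-fold), beside 3.7% and 4.52% of all genes. On Saline+Captopril relative to Saline+Water, Nr1h4 was 1.95-fold and Crat 1.76-fold lower, 2 of 16 beside 10.2% of all genes.

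Proximal tubule markers had nearly the same summed level on all 4 arrays. The summed linear level of 7 defining markers (Lrp2, Cubn, Slc34a1, Slc5a2, Aqp1, Gatm and Miox), none at background, was 0.987 times as high on GN+Captopril as on Saline+Captopril, and 0.981 times as high on the chip labelled GN+Water as on Saline+Water. On GN+Captopril it was 1.001 times that of the chip labelled GN+Water. Single markers of the 7 moved both ways on the chip labelled GN+Water relative to Saline+Water, from Cubn 1.58-fold higher to Slc5a2 1.44-fold lower. Of a longer list of 24 measured tubule genes, 0 were 1.5-fold apart on GN+Captopril relative to Saline+Captopril, beside 2.06% of all genes. On the chip labelled GN+Water relative to Saline+Water 3 were higher and 2 lower by 1.5-fold or more, beside 19.6% and 15.3% of all genes. Gsta2 was 4.16-fold, Hpd 1.68-fold and Cubn 1.58-fold higher, and Slc6a20b 1.93-fold and Atp11a 1.60-fold lower. On GN+Captopril relative to the chip labelled GN+Water Atp11a was 2.27-fold and Acsm2 1.59-fold higher, and Hpd 2.65-fold, Gsta2 2.03-fold and Slc7a8 2.02-fold lower, beside 3.7% of all genes higher and 4.52% lower by 1.5-fold. In saline mice Gsta2 was 2.72-fold higher with captopril than with water.

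Genes known to be sex-biased in mouse kidney also differed on the chip labelled GN+Water. Of 19 measured androgen-responsive or male-biased genes, the chip labelled GN+Water had 11 lower and 2 higher than Saline+Water by 2-fold or more, beside 4.42% and 10.3% of all genes. Their median was −1.14. Acsm3 was 77.3-fold, Slc7a13 64.6-fold, Cyp2j13 41.0-fold and Cyp7b1 22.1-fold lower, and Mgst1 2.97-fold and Aoc1 2.48-fold higher. Kap, a kidney gene controlled by androgen, was at 14.6, 14.4, 14.6 and 14.4 from GN+Captopril to Saline+Water. The highest values of any probe set on these arrays were 14.6, 14.7, 14.6 and 14.6. Kap thus lay at or near the top of the scale, where a difference may not be visible. Of 11 female-biased genes past the filter, 1 of them (Slc22a7) also among the further transporters, 6 were higher and 1 lower by 2-fold or more, and the median was 1.28. Slc7a12 was 39.4-fold, Cyp4a14 8.84-fold, Akr1c18 5.07-fold and Gsta4 4.03-fold higher, and Cyp2d12 2.80-fold lower. On GN+Captopril relative to the chip labelled GN+Water 12 of the 19 were higher and 1 lower by 2-fold or more, and of the 11, 1 was higher and 5 were lower. Of all genes 1.39% were higher and 1.12% lower by that fold in this pair. Both lists were chosen with results of these arrays known, so their counts do not add support, and the part of sex-linked differences in the transporters' values was not tested.

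On GN+Captopril relative to Saline+Captopril 0 of the 19 androgen-responsive or male-biased genes were 1.5-fold apart (median 0.04), beside 2.06% of all genes. Of the 11 female-biased genes 2 were at least 1.5-fold lower, Cyp4a14 by 1.86-fold and Cyp2d12 by 1.57-fold, beside 0.207% of all genes. On Saline+Captopril relative to Saline+Water 5 of the 19 were at least 1.5-fold higher, with Cyp2d9 at 2.68-fold, Mgst1 at 2.44-fold, Nat8 at 1.93-fold and Cyp7b1 at 1.59-fold, and 3 of the 11 were higher, Cyp4a14 at 5.30-fold, Slc6a15 at 2.13-fold and Slc7a12 at 1.80-fold. Of all genes 15.6% were higher by that fold in this pair.

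**Figure D4:**
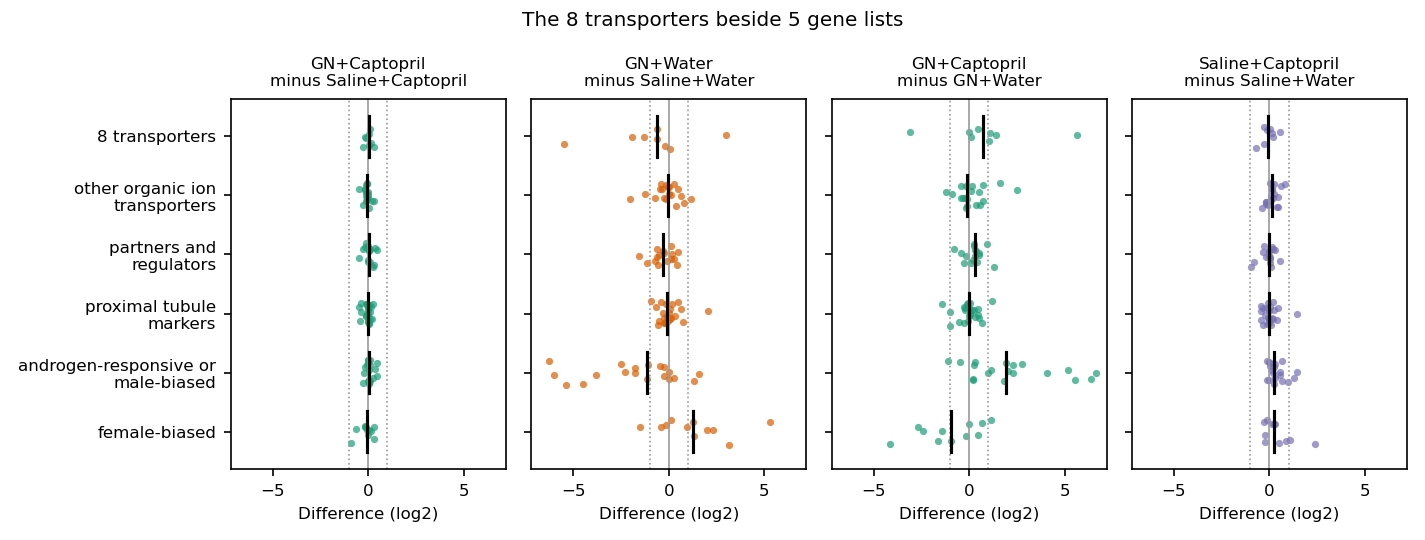
Log2 differences (horizontal axis) of the 8 transporters and of the members past the filter of 5 gene lists (rows) in the 4 comparisons (panels), each point a gene, each vertical bar a median, and dotted lines at 2-fold. In the panel for GN+Water minus Saline+Water the androgen-responsive or male-biased median is −1.14 and the female-biased median 1.28, while the 8 transporters have a median of −0.63.

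Markers of some other cells also differed between the arrays. The summed linear level of 4 macrophage markers was 3.29 times as high on GN+Captopril as on Saline+Captopril, with 3 of 4 at least 1.5-fold higher, and that of 2 plasma cell markers 17.5 times, with both higher. The sum of 2 measured adipocyte markers was 1.73 times as high, both again higher, and that of 3 measured adrenal cortex markers 1.86 times, with 2 of 3 higher. Of these markers Jchain, a plasma cell gene, was at background on 1 array, Saline+Water (4.41, limit 4.81), and the others on none. In the same pair the remaining cell types had sums from 0.835 (liver) to 1.48 (lymphocyte and leukocyte) times. Podocyte and collecting duct sums were each 1.01 times. Among these remaining markers only Ptprc, 1.95-fold higher, was at least 1.5-fold apart on GN+Captopril relative to Saline+Captopril. On the chip labelled GN+Water the macrophage sum was 4.79 times and the plasma cell sum 165 times that of Saline+Water, and the adrenal cortex sum 0.917 times. With Jchain at background on Saline+Water, the 165 rests on a baseline near the floor and is not a precise fold. The part of these cells in the transporter values was not tested.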

How the data were processed

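Whole-kidney RNA (6 µg) was biotinylated for Affymetrix arrays, per the labels. The values the authors deposited lie on a log2 scale, going by their range. GCOS and RMA are named, per the submitters' processing notes, without version or role. Beyond these names the sources used here give no settings of background correction or normalisation, and no genome build. Values were used as deposited, with array medians of 6.93 to 6.99.

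Of 22690 probe sets, 20393 had 1 symbol, 691 several and 1606 none. Names of 20364 were updated by Entrez ID from a RefSeq gene table. The probe set of highest mean stood for its gene, which was kept at or above the 40th percentile of all probe sets. The background limit of an array was the 90th percentile of its 27 negative-control probe sets, and no member lay under it. By this rule no member's fold is a bound. Slco1a1, at 4.96 and 5.05 on the chip labelled GN+Water, lay near that array's limit of 4.37. Its folds against that chip are therefore not precise.

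Each comparison is the log2 difference of 2 arrays. The 0 residual degrees of freedom allow no test, and precision is limited by the number of arrays. Counts are of genes at least 2-fold or 1.5-fold apart. Functions were tested on simulated data. Alternatives were quantile normalisation, cyclic loess (limma 3.58.1), median centring, the mean of all probe sets, leaving out shared probe sets, other filters and folds, and exchanged arrays. Named genes were all members; up to 4 per list, direction and comparison at least 1.5-fold apart; the sex-linked genes; and the 5 genes nearest in profile. Other genes of the lists named with their levels were chosen after their values were seen. The members, lists and rules were chosen with earlier results of these data known. Of the planned sequence comparisons, that of proteins was not run. Python 3.11.15 and pandas 2.3.3 were used.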

Additional observations from a re-analysis of the deposited data

Results flagged for a closer look

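For 4 of the 8 transporters the GN difference on captopril and that on water had opposite signs, with the larger at least 1.5-fold, as did 14.9% of all 8207 genes. Slc22a29, among the 4, passed the filter only through the chip labelled GN+Water. The captopril value minus the water value was 5.81 on the log2 scale for Slco1a1, 2.08 for Slc22a6, 1.31 for Slc22a12 and −3.29 for Slc22a29. The difference was not tested, since each group has 1 array. All 4 values rest on the chip labelled GN+Water, on which Xist was at 8.97, against 5.02 to 5.21 on the other 3.

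A probe set annotated to more than 1 gene, and so used in no comparison, was 3.06 higher (log2) on the chip labelled GN+Water than on Saline+Water, at 10.1 and 7.07. On GN+Captopril it was at 7.13 and on Saline+Captopril at 7.02.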

How the results depend on the processing

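No paired analysis was possible because each group has 1 array and the labels carry no replicate numbers. A count was taken as kept when it stayed within 1.5 times its value, and a median or a gene's difference when it moved by less than 1.5-fold, tolerances set for this purpose. By these rules 65 of 68 alternative values of the members' counts and medians were kept. With GN+Captopril in place of the chip labelled GN+Water, the count of members at least 2-fold apart from Saline+Water was 0 in place of 4, and Slco1a1 (0.15), Slc22a29 (−0.11) and Slc22a2 (0.47) changed direction. By construction this leaves out the chip that carries the large values. At 3-fold, 2 members were apart on GN+Captopril relative to the chip labelled GN+Water in place of 5 (4 at 2-fold under quantile normalisation or cyclic loess), and at 1.5-fold 1 member was apart on Saline+Captopril relative to Saline+Water in place of 0. Of 172 alternative values of single members, 165 were kept, 4 moved and 3 changed direction beyond the tolerance, the 3 just named. Values that changed sign within the tolerance count as kept. With Saline+Captopril as baseline, Slc22a8 went from −0.19 to 0.10 and Slc22a5 from 0.08 to −0.07. With the mean of all probe sets, Slc22a8 in the pair from captopril-treated mice went from 0.08 to −0.08. The median of the 8 in that pair went from 0.04 to −0.02. The 4 that moved are GN differences on water: Slc22a12 without shared probe sets (−2.09), Slc22a6 with Saline+Captopril as baseline (−1.24), and Slc22a6 (−0.53) and Slc22a12 (−0.24) with GN+Captopril in place of the chip labelled GN+Water. All 39 values in the pair from captopril-treated mice were kept under the normalisation and probe set alternatives. No scaling moved the median of all genes by over 0.1. Leaving out shared probe sets gave no value for Slc22a29, and a filter at the 60th percentile removed it.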
